A study of Sus scrofa with 6 samples.

Results

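The open chromatin of the FOXP family genes FOXP1, FOXP2 and FOXP4 was described in developing pig somites and myotomes by scATAC-seq (single-cell ATAC-seq), an assay in which Tn5 transposase inserts into accessible DNA and droplet barcodes assign the fragments to cells. The members were all peaks that overlapped the body of one of these genes or the 2 kb before its start, 790 of the 1047483 peaks of the series. After overlapping peaks of the 6 libraries were merged they formed 222 of 294825 regions, with 142 in FOXP1, 68 in FOXP2 and 12 in FOXP4. The family was chosen for a region in an intron of FOXP1 with far more counts at E28 than at E18 in these same data. It was hardly called at E18, so its level there was not measured, and its values are given below as a description without a test. Each library came from 5 embryos of the same sow, pooled. Somites were sampled at embryonic day 18 (E18) and day 21 (E21) and myotomes at day 28 (E28), from Tibetan pigs (ZZ) and from DurocxTibetan pigs (DZ), 1 library for each stage and breed. Stage and breed were therefore compared with the 2 libraries of a stage and the 3 libraries of a breed as replicates. The adjusted p-values rest on the spread left between these pooled libraries after additive terms for stage and breed. That spread mixes differences between sows and libraries with stage changes that differ between the breeds. The tissue changes together with the stage at E28, and the effects of the tissue and of the stage cannot be told apart.

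The FOXP proteins are forkhead transcription factors that act mostly as repressors, and they bind DNA as homodimers or as heterodimers with one another through a leucine zipper. FOXP1 is known from B cells, heart, lung and the motor neurons that innervate the limb. FOXP2 is known from neural circuits of vocal learning and from lung, and FOXP4 from lung and from neural progenitors of the spinal cord. All of them have also been studied in the growing skeleton.

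In the RefSeq annotation of Sscrofa11.1, FOXP1 (gene 100525716) lay at chr13:52346844-52974358 on the minus strand with 14 transcripts and 11 start sites. FOXP2 (gene 100127352) lay at chr18:31335102-31890523, also on the minus strand, with 16 transcripts and 11 start sites. FOXP4 (gene 100153907) was much shorter, at chr7:36760643-36793620 on the plus strand, with 1 transcript. Regions are placed below by the distance of their centre from the 5′ end of the gene and are called promoter, exon or intron regions in that order of precedence, where a promoter is the 2 kb before any annotated start of the gene.

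The 5′ ends of the genes and 7 of the intron elements described below are printed here from the reference assembly, 5′ to 3′ on the strand of the gene. The start windows run from 275 bases before to 25 bases after the annotated start, and the intron windows are the central 200 bases of the strongest peak in the region. Capitals mark matches on either strand to any of 7 short motifs, which were TGTTTAC (forkhead), CAGCTG (an E-box of MYOD-type factors), GGAATG (TEAD), TTGGCA (NFI half-site), AGGAAGT (ETS), ACAATGG (SOX) and TGANTCA (AP-1).
FOXP1 start, chr13:52974334-52974633: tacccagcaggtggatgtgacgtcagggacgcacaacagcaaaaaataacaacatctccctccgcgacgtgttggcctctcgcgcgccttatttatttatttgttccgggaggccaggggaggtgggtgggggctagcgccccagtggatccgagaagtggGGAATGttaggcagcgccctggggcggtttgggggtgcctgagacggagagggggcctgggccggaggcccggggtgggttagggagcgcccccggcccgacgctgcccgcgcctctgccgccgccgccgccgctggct
FOXP2 start, chr18:31890499-31890798: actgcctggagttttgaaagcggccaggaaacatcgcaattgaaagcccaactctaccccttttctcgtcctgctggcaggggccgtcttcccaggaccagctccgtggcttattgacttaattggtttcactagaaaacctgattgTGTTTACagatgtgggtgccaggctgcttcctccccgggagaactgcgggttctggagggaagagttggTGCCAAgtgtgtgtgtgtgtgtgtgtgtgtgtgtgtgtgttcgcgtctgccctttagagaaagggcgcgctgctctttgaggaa
FOXP4 start, chr7:36760368-36760667: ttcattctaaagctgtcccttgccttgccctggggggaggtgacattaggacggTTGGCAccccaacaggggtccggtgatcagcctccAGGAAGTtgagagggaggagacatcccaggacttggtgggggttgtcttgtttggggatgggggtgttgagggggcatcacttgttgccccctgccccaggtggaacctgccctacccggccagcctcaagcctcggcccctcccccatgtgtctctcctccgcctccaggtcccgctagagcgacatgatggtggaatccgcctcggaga
FOXP1 intron element at 68.3 kb, chr13:52905487-52905686, the one that led to the choice of the family: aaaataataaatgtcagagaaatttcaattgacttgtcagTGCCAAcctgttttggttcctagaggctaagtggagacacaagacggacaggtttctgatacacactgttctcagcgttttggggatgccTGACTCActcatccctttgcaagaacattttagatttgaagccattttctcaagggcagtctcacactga
FOXP1 intron element at 576 kb, chr13:52397937-52398136, highest in sclerotome and cartilage-like cells: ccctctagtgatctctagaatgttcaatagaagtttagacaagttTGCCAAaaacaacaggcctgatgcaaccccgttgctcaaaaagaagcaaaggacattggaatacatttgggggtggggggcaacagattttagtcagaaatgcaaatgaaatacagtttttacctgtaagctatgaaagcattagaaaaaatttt
FOXP1 intron element at 41.1 kb, chr13:52933216-52933415, highest in endothelial-like cells: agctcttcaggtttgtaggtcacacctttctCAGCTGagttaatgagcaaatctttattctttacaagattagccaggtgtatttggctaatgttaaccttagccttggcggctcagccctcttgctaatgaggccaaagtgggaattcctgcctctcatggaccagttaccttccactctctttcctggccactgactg
FOXP1 intron element at 340 kb, chr13:52633873-52634072, highest in myogenic-like cells: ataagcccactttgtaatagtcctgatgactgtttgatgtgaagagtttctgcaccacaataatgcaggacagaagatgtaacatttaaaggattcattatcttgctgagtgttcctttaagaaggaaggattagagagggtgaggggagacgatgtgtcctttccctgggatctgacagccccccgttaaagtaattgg
FOXP1 intron element at 45.4 kb, chr13:52928919-52929118, highest in a fibroblast and mesenchyme-like cluster: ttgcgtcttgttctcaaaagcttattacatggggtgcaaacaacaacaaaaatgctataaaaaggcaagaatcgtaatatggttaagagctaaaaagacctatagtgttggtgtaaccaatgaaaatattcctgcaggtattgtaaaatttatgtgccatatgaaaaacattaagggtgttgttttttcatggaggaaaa
FOXP4 intron element at 4.48 kb, chr7:36765244-36765443, the member that passed in both steps between stages: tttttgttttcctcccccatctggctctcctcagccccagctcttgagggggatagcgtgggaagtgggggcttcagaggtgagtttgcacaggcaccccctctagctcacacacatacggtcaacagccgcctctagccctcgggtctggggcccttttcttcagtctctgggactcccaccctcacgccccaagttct
FOXP2 intron element at 27.6 kb, chr18:31862817-31863016, highest in a fibroblast and mesenchyme-like cluster: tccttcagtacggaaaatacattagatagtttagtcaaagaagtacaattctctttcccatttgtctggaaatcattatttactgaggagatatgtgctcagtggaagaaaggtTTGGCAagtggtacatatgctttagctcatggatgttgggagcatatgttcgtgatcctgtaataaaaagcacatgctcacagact

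The start window of FOXP1 had a GC content of 67.3% with 27 CpG dinucleotides, that of FOXP4 62.3% with 9, and that of FOXP2 53.7% with 11. Over the start windows of 28214 genes the medians were 54.3% and 10. The 6 intron elements of FOXP1 and FOXP2 had 33.0% to 46.5% GC and 1 or 2 CpG each, whereas the FOXP4 element had 59.5% GC and 5 CpG. The medians over the central windows of 27801 intron regions with a peak in all libraries were 48.5% and 3 CpG. The FOXP1 start window held a TEAD match, as did 12.3% of all start windows. The FOXP2 start window held the forkhead letters, which occurred in 2.86% of all start windows, and an NFI half-site, which occurred in 12.0%. The FOXP4 start window held an NFI half-site and an ETS match, the latter found in 6.37%. The FOXP1 element at 68.3 kb held an NFI half-site and an AP-1 match, which occurred in 11.6% and 7.85% of all intron windows. The element at 41.1 kb held the E-box, as did 19% of intron windows, and the elements at 576 kb of FOXP1 and 27.6 kb of FOXP2 each held an NFI half-site. The elements at 340 and 45.4 kb of FOXP1 and at 4.48 kb of FOXP4 held none of the 7 motifs in these windows. These matches describe the letters of the reference and do not show that a factor was bound.

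In all, 58809 of 64439 barcodes with 2000 to 30000 counts were kept, 9286 to 11243 per library, and each library held 89816504 to 133037579 counts of Tn5 cut sites in its peaks. Peaks were called separately in each library, so that a region has 0 counts in any library where it was not called. The sequence under peaks fell from 191 Mb in E18 ZZ to 102 Mb in E28 ZZ, and any sum over a region moves with the length that was called in it. Between 113 and 157 barcode sequences were shared by any pair of libraries, at most 1.66% of the smaller library.

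At the level of whole genes, the counts in FOXP1 and FOXP2 were similar over the stages, whereas those in FOXP4 fell. The FOXP1 window, which is the gene plus 2 kb before its start, held 398 and 388 CPM, which is relative to all kept counts of the library, in the ZZ and DZ libraries of E18, 379 and 434 CPM at E21, and 374 and 410 CPM at E28. The FOXP2 window held 161 and 180 CPM at E18, 172 and 166 CPM at E21, and 169 and 145 CPM at E28. The ranges of the stages overlapped for both genes. The FOXP4 window held 148 and 147 CPM at E18, 125 and 84.9 CPM at E21, and 59.1 and 49.2 CPM at E28, and the stages did not overlap. How many other gene windows had stages without overlap was not counted. At least 1 count in FOXP4 was found in 53.1% and 52.8% of the cells at E18 and in 22.6% and 21.1% at E28. With the edgeR quasi-likelihood test FOXP4 was lower at E28 than at E21 by a log2 fold change of -0.98 ± 0.14 (SE, adjusted p = 0.034), and it was 1 of the 1330 gene windows that passed, 5.71% of 23286. Neither FOXP1 (log2 -0.08 ± 0.09, adjusted p = 0.555) nor FOXP2 (log2 -0.14 ± 0.10, adjusted p = 0.406) passed. Between E21 and E18 none of the genes passed in the same test, where 1.93% of all windows did, 1 had an unadjusted p under 0.05, and FOXP4 had log2 -0.52 ± 0.14 (adjusted p = 0.099). DESeq2 called FOXP4 in that comparison (adjusted p = 0.00072), as it did 33.3% of 23867 windows. The comparison of E28 with E18, which took part in choosing the family, called FOXP4 only, beside 42.4% of all windows, and nothing is read from it. The tests of consecutive stages share the E18 or the E28 libraries with that comparison.

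The fall of FOXP4 went together with the length of sequence called as peaks. That length was 29387 and 26173 bp at E18, 25045 and 21810 bp at E21, and 12668 and 11052 bp at E28. Per covered kb, FOXP4 held 5.05 and 5.63 CPM at E18, 5.00 and 3.89 CPM at E21, and 4.66 and 4.45 CPM at E28. Taking covered length as an offset, the difference between E28 and E21 was log2 0.0067 ± 0.13 (edgeR adjusted p = 0.970), and between E21 and E18 it was -0.27 ± 0.13 (adjusted p = 0.130). The medians of all windows under this offset were 0.34 and 0.20 in these steps, so FOXP4 lay below both. The peaks of FOXP1 shrank as well, from 103805 and 84087 bp at E18 to 48673 and 57254 bp at E28, while its counts did not, so its level per covered kb went from 3.83 and 4.61 CPM to 7.68 and 7.16 CPM. Under the offset FOXP1 (log2 0.61, edgeR adjusted p = 0.00073) and FOXP2 (0.39, adjusted p = 0.014) were both higher at E28 than at E21, where 42.9% of all windows passed and the median of all windows was 0.34. Here and below, p-values with and without the offset cannot be set beside each other. Without it FOXP4 at log2 -0.98 ± 0.14 had an unadjusted edgeR p of 0.00091. With it FOXP1 at 0.61 ± 0.14 had 7.4e-05, though its change was smaller beside its SE. Less open chromatin and narrower calls of the same chromatin cannot be told apart in these sums, and neither can fewer open cells of a type and less opening per cell.

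**Figure D1:**
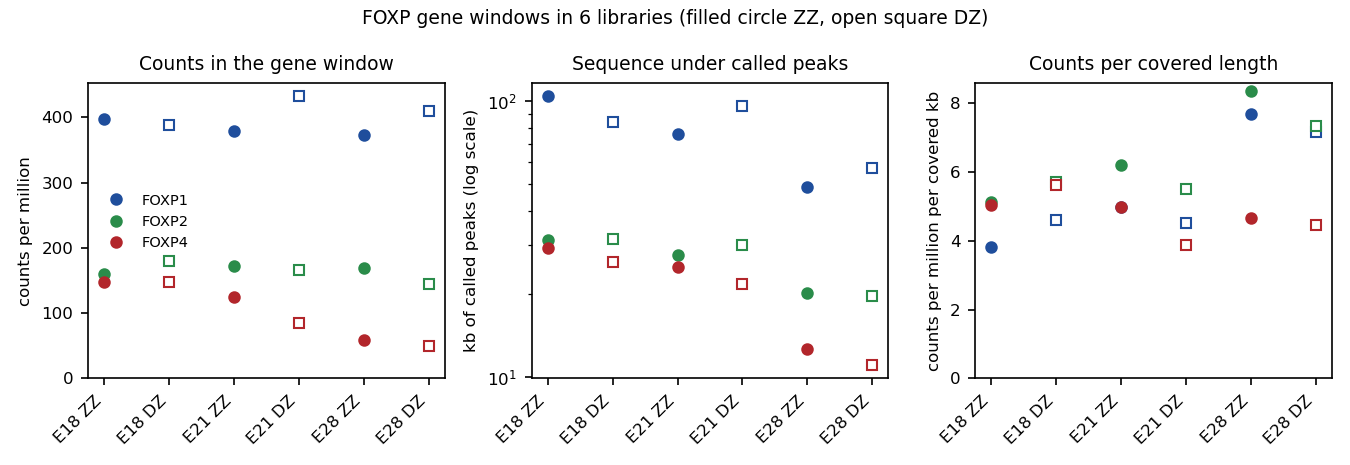
Counts in the FOXP gene windows (left, CPM), kb of called peaks in them (middle, log axis) and CPM per covered kb (right) in each of the 6 libraries, with filled circles for ZZ and open squares for DZ. FOXP4 falls from 148 to 49.2 CPM while its covered length falls from 29387 to 11052 bp, and FOXP1 stays between 374 and 434 CPM.

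Promoter regions carried a similar part of the counts of the 3 genes together at every stage, while shares within the genes differed between stages in directions that depended on the gene. These shares were not tested, and those of E28 beside E18 are a description, since that contrast chose the family. The intron sums of FOXP1 and of the 3 genes together include the region that led to the choice, which was hardly called at E18. Of the 222 regions 10 were promoter, 24 exon and 188 intron regions. Promoter regions held 30.3% ± 1.05 (SD, n = 2) of the counts in the 3 genes at E18, 30.6% ± 2.76 at E21 and 30.9% ± 1.89 at E28. Over the 3 genes together, intron regions held 44.7% and 43.7% of them at E18, 44.4% and 52.3% at E21 and then 51.3% and 54.6% at E28. Exon regions held 25.8% and 25.3% at E18, 23.0% and 19% at E21, with 16.5% and 15.8% by E28. The genes differed in how these counts were placed. In FOXP1 introns held 59.2% and 56.6% at E18 and 65.9% and 66.1% at E28, and exons 18.6% and 19.4% and then 12.8% and 12.3%. In FOXP2 introns held 25.7% and 30.4% at E18 and 32.0% and 36.0% at E28, and exons 16.4% and 14.7% and then 2.74% and 2.78%. FOXP4 went the other way, with introns at 26.5% and 26.0% at E18 and 20.9% and 22.4% at E28, and exons at 55.0% and 53.6% and then 67.2% and 69.0%. The counts in its exons were nonetheless lower at E28, with 82.1 and 79.4 CPM at E18 and 49.3 and 43.4 CPM at E28. Promoter regions held 20.8% to 24.6% of the counts of FOXP1. In FOXP2 they held 58.0% and 54.9% at E18 and 65.2% and 61.3% at E28, and in FOXP4 18.5% and 20.4% at E18 and 11.9% and 8.65% at E28.

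Which regions had a called peak differed by stage, in shares mostly near those of all regions of the series. The shares were not tested against each other. All 6 libraries had a peak in 50 regions (22.5%, against 26.6% of all regions of the series), which were 33 in FOXP1, 12 in FOXP2 and 5 in FOXP4. Both libraries of E18 and no other had a peak in 27 regions (12.2%, against 12.7%), 21 of them in FOXP1 and 6 in FOXP2. Both libraries of E18 and of E21, and neither of E28, had a peak in 32 regions (14.4%, against 9.14%). Peaks in both libraries of E28 and no other were found in 5 regions (2.25%, against 2.24%), 2 in FOXP1 and 3 in FOXP2, and both libraries of E21 and no other in 1 region of FOXP1 (0.45%, against 2.21%). The 4 regions with peaks in both libraries of E21 and of E28 and in neither of E18 (1.80%, against 2.99%) all lay in FOXP2. The FOXP1 intron region that led to the choice of the family was hardly called at E18 but is counted among the 50. The strongest of the regions with peaks at E18 alone lay in an intron 392 kb into FOXP1 (chr13:52581721-52582698), with 2.72 and 2.41 CPM. In FOXP2 it lay 109 kb in (chr18:31781526-31782037), with 1.56 and 1.52 CPM. The strongest with peaks at E28 alone were introns at 379 kb of FOXP1 (chr13:52594840-52595414), with 1.78 and 3.39 CPM, and at 185 kb of FOXP2 (chr18:31705592-31706089), with 1.94 and 2.37 CPM. The region of E21 alone, an intron at 582 kb of FOXP1 (chr13:52392171-52392569), had 0.391 and 0.872 CPM. All these regions had low counts, below 4 CPM.

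The promoters at the 5′ ends of FOXP1 and FOXP2 were the strongest regions of the family and differed little between stages. The FOXP1 promoter region (chr13:52970018-52976810, 0.94 kb) held 59.1 and 64.0 CPM at E18, 64.2 and 62.8 CPM at E21, and 58.3 and 69.1 CPM at E28. Its log2 fold change was -0.02 ± 0.10 for E21 against E18 (edgeR adjusted p = 0.915) and 0.02 ± 0.10 for E28 against E21 (adjusted p = 0.90). Since its covered length went from 6516 and 6283 bp at E21 to 4973 and 4644 bp at E28, the latter was 0.44 (adjusted p = 0.0052) with covered length as an offset. Under this offset the median of all regions was 0.33 for E28 against E21 and 0.08 for E21 against E18. The FOXP2 promoter region (chr18:31886373-31893338, 0.67 kb) held 73.0 and 76.4 CPM at E18, 85.6 and 81.1 CPM at E21, and 95.9 and 76.7 CPM at E28. Its log2 fold changes were 0.09 ± 0.09 (edgeR adjusted p = 0.589) and 0.07 ± 0.10 (adjusted p = 0.680), and it had almost the same covered length in all libraries, 6793 to 6933 bp. This region also spans the start of a noncoding gene, LOC110257539, so the counts of the starts cannot be separated.

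The promoter region at the annotated start of FOXP4, by contrast, was lower at each later stage. The only annotated transcript of FOXP4 begins with ATG, the letters of a start codon. Whether transcription starts in this region or further upstream was not tested. The region at its start (chr7:36755951-36762800) held 27.6 and 30.3 CPM at E18, 18.8 and 14.2 CPM at E21, and 8.73 and 5.44 CPM at E28, with no overlap between stages. How many other regions had no overlap was not counted, and the contrast of E28 with E18 took part in choosing the family. The region was lower at E28 than at E21 by log2 -1.22 ± 0.20 (edgeR adjusted p = 0.033). The difference of E21 from E18, log2 -0.90 ± 0.20, did not pass (adjusted p = 0.056), whereas DESeq2 called it (adjusted p = 0.0013) along with 18.1% of all regions. Its covered length went from 6785 and 6850 bp to 2572 and 2551 bp, and with that length as an offset the difference of E28 from E21 was -0.09 (adjusted p = 0.727) and that of E21 from E18 -0.62 (adjusted p = 0.020). The medians of all regions under the offset were 0.33 and 0.08 in these steps, where it called 32.4% and 17.6% of all regions.

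Promoters of internal start sites were weaker. In FOXP1 the region at 450 kb (chr13:52521091-52528253) held 24.0 and 24.1 CPM at E18, 24.7 and 20.3 CPM at E21, and 19.9 and 14.6 CPM at E28. The other promoter regions of FOXP1 were those at 273 kb (chr13:52701219-52702126), with 1.60 to 3.53 CPM, at 271 kb (chr13:52702727-52703100), with 0 to 0.955 CPM, and at 86.0 kb (chr13:52887995-52888781), with 0 to 3.22 CPM. In FOXP2 the region at 290 kb (chr18:31599282-31602600) held 16.3 and 18.0 CPM at E18, 19.4 and 12.6 CPM at E21, and 12.7 and 10.6 CPM at E28. Those at 287 kb (chr18:31603147-31603738) and at 302 kb (chr18:31588647-31589302) held 0 to 3.50 CPM and 0.872 to 1.45 CPM. None of these passed the edgeR test between consecutive stages, where they had a peak in all libraries.

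Between E21 and E18 members in introns of all 3 genes passed. Of the 50 regions with a peak in every library 6 passed the edgeR test (adjusted p under 0.05), 5 higher and 1 lower at E21. Across all 78533 such regions 6.59% passed, 4.80% higher and 1.78% lower. All 6 were among the 33 intron regions, and 7.67% of the 27801 intron regions of the series passed. None of the 7 promoter regions did, beside 3.20% of 16353 promoters, although 1 of them had an unadjusted p under 0.05, and none of the 10 exon regions did, beside 6.78% of 9716 exons, although 5 had an unadjusted p under 0.05. With these shares, no call among so few promoters and exons is near the background, and the elements were not tested against each other. The 6 include the region that led to the choice of the family, which leaves 5 without it. The covered length moved in the same direction in 5 of the 6, and 4 still passed in that direction with covered length as an offset. That fit called 17.6% of all regions. All members tested here share the E18 libraries with the contrast that chose the family.

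In FOXP1 the intron region at 79.8 kb (chr13:52893836-52895299) held 2.47 and 1.55 CPM at E18, 12.6 and 14.2 CPM at E21, and 16.6 and 20.9 CPM at E28. Every library of E21 and E28 was above both of E18. For such orders, here and below, the share of other regions was not counted. Its log2 fold change for E21 against E18 was 2.67 ± 0.33 (edgeR adjusted p = 0.022), and 1.82 (adjusted p = 1.2e-05) with covered length as an offset. The lower p under the offset is not stronger support, since the p-values of these fits are not comparable. The region at 195 kb (chr13:52777789-52780755) held 9.34 and 9.01 CPM at E18, 16.4 and 16.4 CPM at E21, and 20.7 and 21.5 CPM at E28, and rose by log2 0.77 ± 0.16 at E21 (adjusted p = 0.048; 0.54 with an adjusted p of 0.054 under the offset). The region at 45.4 kb (chr13:52927835-52930150) held 12.1 and 10.7 CPM at E18, 23.5 and 31.7 CPM at E21, and 45 and 22.6 CPM at E28. Both E21 values were above both of E18, but its log2 fold change of 1.23 ± 0.32 did not pass (edgeR adjusted p = 0.073).

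The region at 68.3 kb (chr13:52904465-52907633), between those at 45.4 and 79.8 kb, was the one that led to the choice of the family. It held 0.0 and 0.0321 CPM at E18, 7.45 and 15.2 CPM at E21, and 16.4 and 28.9 CPM at E28. At E18 its called peaks covered only 2 bp in ZZ and 7 bp in DZ, inside sequence that the libraries of E21 and E28 called over 1478 to 3169 bp. These few bases are too short to measure the level at E18, so no fold change is given. Its E28 values took part in the choice, so the difference between E21 and E28 is left as these values without a test.

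In FOXP2 the intron region at 366 kb (chr18:31523616-31524688) held 0.970 and 0.625 CPM at E18, 7.15 and 9.30 CPM at E21, and 3.79 and 5.09 CPM at E28. It was the strongest intron region of the gene on average and was highest at E21, with log2 3.27 ± 0.40 against E18 (edgeR adjusted p = 0.022; 2.0 with an adjusted p of 2.2e-05 under the offset). The region at 391 kb (chr18:31499166-31499906) held 1.06 and 1.19 CPM at E18, 2.96 and 4.34 CPM at E21, and 2.72 and 3.06 CPM at E28, and rose by log2 1.61 ± 0.33 at E21 (adjusted p = 0.048). The region at 27.6 kb (chr18:31862579-31863255) held 0.849 and 0.850 CPM at E18, 2.75 and 4.15 CPM at E21, and 6.90 and 3.04 CPM at E28, without passing (log2 1.98 ± 0.49 at E21, adjusted p = 0.067). The region at 138 kb (chr18:31752212-31752929), next in mean level among the introns of the gene, went the other way, with 3.66 and 4.88 CPM at E18 and 1.58 and 1.79 CPM at E28, and passed in neither step.

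In FOXP4 the first strong intron region, at 4.48 kb (chr7:36762870-36767370), was the only member to pass in both steps. It held 34.1 and 36.8 CPM at E18, 23.6 and 22.2 CPM at E21, and 15.3 and 14.1 CPM at E28. It fell by 0.70 on the log2 scale at E21 (-0.70 ± 0.12, edgeR adjusted p = 0.032) and by a further 0.62 at E28 (-0.62 ± 0.12, adjusted p = 0.040). Under the offset the first of these was -0.76 (adjusted p = 0.0011) and the second -0.20 (adjusted p = 0.263). The next introns of FOXP4 by level, at 26.8 kb (chr7:36786911-36788027) and 15.3 kb (chr7:36775583-36776279), held up to 2.70 and 2.13 CPM at E18 and E21 and had no peak at E28.

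The tests of E28 against E21 share the E28 libraries with the contrast that chose the family. Between E28 and E21 the members that passed were all lower at E28. There were 6 of 50, with 0 higher, beside 7.13% of all regions, 4.61% lower and 2.53% higher. They were 3 of the 33 intron regions (8.20% of all introns passed), 2 of 10 exon regions (8.19% of all exons passed) and 1 of 7 promoter regions (3.76% of all promoters passed). In FOXP4 these were the promoter and the intron described above and the exon region at 13.0 kb (chr7:36772508-36774819), which held 24.8 and 24.2 CPM at E18, 21.1 and 14.2 CPM at E21, and 10.7 and 7.57 CPM at E28 (log2 -0.93 ± 0.17, edgeR adjusted p = 0.039, and -0.67 with an adjusted p of 0.0062 under the offset). In FOXP2 the exon region at 520 kb (chr18:31369102-31371685) went from 6.67 and 7.34 CPM at E21 to 3.45 and 2.78 CPM at E28 (log2 -1.16 ± 0.24, adjusted p = 0.046). Its covered length went from 2147 and 2249 bp to 652 and 657 bp, and under the offset the direction turned (0.59, adjusted p = 0.043). The median of all regions under the offset was 0.33 in this step. In FOXP1 the introns at 525 kb (chr13:52448182-52450277) and 511 kb (chr13:52462404-52464149) fell by 2.14 and by 1.97 on the log2 scale (-2.14 ± 0.35 and -1.97 ± 0.33, adjusted p = 0.031 and 0.033). The first went from 4.25 and 5.45 CPM to 1.07 and 1.10 CPM and the second from 4.17 and 3.30 CPM to 0.880 and 0.973 CPM, and both turned under the offset without passing (0.21 and 0.43). In all 6 of these regions the covered length also fell. With covered length as an offset 1 of the 6 still passed in the same direction, the FOXP4 exon at 13.0 kb, and 1 passed in the opposite direction, the FOXP2 exon at 520 kb. That fit called 32.4% of all regions in this step.

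The comparison of E28 with E18 called 27 of the 50 regions, 12 higher and 15 lower, beside 37.1% of all regions, 19% higher and 18.1% lower. By element it called 18 of 33 introns (35.9% of all introns), 2 of 7 promoters (40.3% of all promoters) and 7 of 10 exons (38.8% of all exons). Since the family was chosen on this contrast, the counts are given as a description. In 26 of the 27 the covered length moved in the same direction, and with covered length as an offset 17 still passed in that direction. The fit with the offset called 52.2% of all regions.

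**Figure D2:**
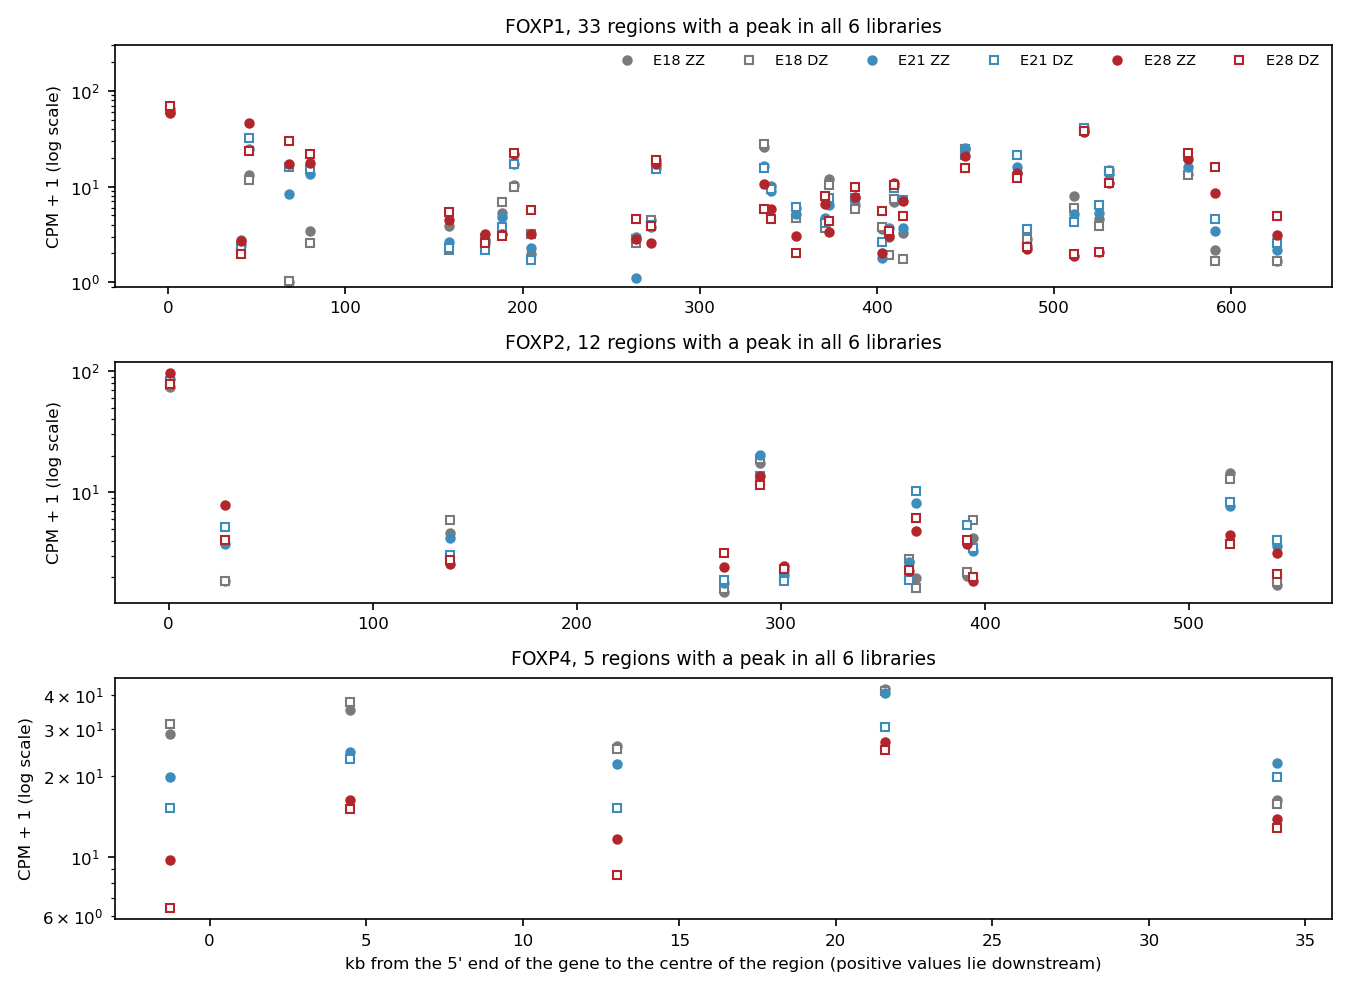
Level of each region with a peak in all libraries (CPM plus 1, log axis) against its distance in kb from the 5′ end of FOXP1, FOXP2 and FOXP4, by stage (colour) and breed (filled circle ZZ, open square DZ). The promoters at the 5′ ends of FOXP1 and FOXP2 overlap between stages, the FOXP1 intron at 79.8 kb lies lowest at E18 (the one at 68.3 kb was hardly called there), and 4 of the 5 FOXP4 regions are lowest at E28 with E18 on top.

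**Figure D3:**
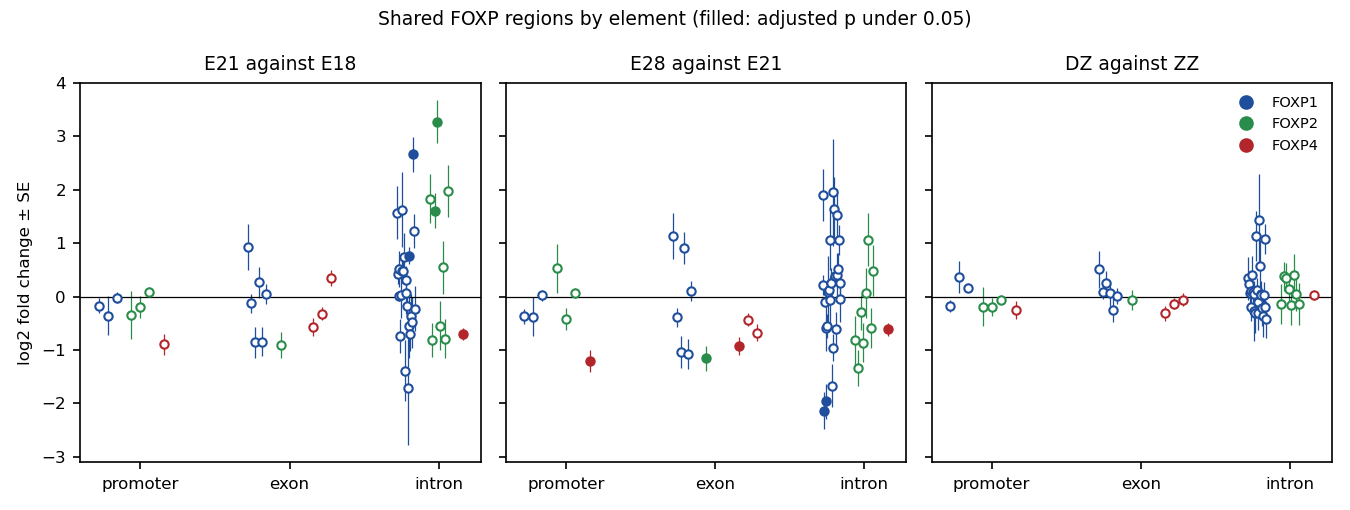
Log2 fold changes with standard errors of the shared FOXP regions by element, for E21 against E18, E28 against E21 and DZ against ZZ, with filled points for an adjusted p under 0.05 and colours for the genes. The FOXP1 region at 68.3 kb is left out of the first panel because its E18 peaks covered 2 and 7 bp. It remains in the other panels, where its values are not read. Filled points at E21 lie among introns, and no point is filled for the breeds.

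The most open intron of the family differed little between stages. The FOXP1 region at 517 kb (chr13:52455066-52459686) held 37.0 and 38.9 CPM at E18, 39.8 and 40.1 CPM at E21, and 36.0 and 37.2 CPM at E28, with log2 fold changes of 0.0 ± 0.09 and -0.10 ± 0.09 between consecutive stages (edgeR adjusted p = 0.984 and 0.505). Under the offset the step to E28 was 0.74 (adjusted p = 0.00023). It was open in 15.0% to 20.3% of the cells. The intron at 576 kb (chr13:52396741-52400371) held 12.6 and 12.1 CPM at E18, 15.2 and 19.8 CPM at E21, and 18.5 and 21.3 CPM at E28. It passed in neither step (log2 0.42 ± 0.18 and 0.21 ± 0.18, edgeR adjusted p = 0.208 and 0.487), while under the offset the step to E28 was 0.82 (adjusted p = 0.0018). In that step the offset gave a median of 0.33 over all regions and called 32.4% of them, so part of both rises is shared by the series.

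Between the breeds no member passed. The edgeR test of DZ against ZZ called 0 of the 50 regions and 0.0% of all 78533. The only member with an unadjusted p under 0.05 was the FOXP1 intron at 68.3 kb, whose fold change is not read because its E18 level was not measured. DESeq2 called 0 of the 50 as well, beside 159 of all regions (0.202%). The gene windows gave log2 0.13 ± 0.07 for FOXP1, -0.01 ± 0.08 for FOXP2 and -0.25 ± 0.11 for FOXP4 (edgeR adjusted p = 0.825, 0.997 and 0.825), and 1 window of the series (0.00429%) passed. With 3 libraries per breed and 1 per breed and stage, a p above the threshold does not show that the breeds are alike. The widest gap of FOXP4 between breeds was at E21, with 125 CPM in ZZ and 84.9 CPM in DZ. In the same libraries neural progenitor-like cells made up 14.6% of ZZ and 8.09% of DZ and neuron-like cells 16.8% and 9.95%, and the part of this difference in the gap was not tested. Within the clusters FOXP4 was lower in E21 DZ than in E21 ZZ in 10 of the 11 with at least 50 cells in both, for example with 65.6 against 89.1 CPM in myogenic-like and 74.8 against 126 CPM in sclerotome and cartilage-like cells, while neuron-like cells held 148 CPM in both. These clusters come from a single pair of libraries and share their called peaks, so they are not replicates. How many other gene windows did the same was not counted, and no cause of the gap was tested.

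The cells were then divided into 12 clusters from regions that excluded the FOXP genes and 100 kb around them, and clusters were named from marker genes. Named clusters held myogenic, epithelial, neural progenitor, neuron, neural crest and glia, endothelial, sclerotome and cartilage and blood-like cells, 3 were fibroblast and mesenchyme-like (clusters 0, 5 and 9), and cluster 6, of 4303 cells, kept no name. The fibroblast and mesenchyme names rest on few markers, with 4, 5 and 3 of 10 raised in clusters 0, 5 and 9. In neural progenitor-like cells 8 of 10 of their own markers and 6 of 10 neuron markers were raised, and in the other named clusters 5 to 11 of their own markers were. The samples labelled somite and myotome thus held many other cells, and myogenic-like cells (6828, with 11 of 12 markers raised) made up 6.84% and 7.03% of the cells at E18 and 14.6% and 22.1% at E28. Their makeup changed with the stage: epithelial-like cells went from 39.3% and 29.5% at E18 to 1.46% and 1.35% at E28, neural progenitor-like cells from 18.1% and 29.7% to 0.638% and 0.466%, and cells of cluster 0 from 2.43% and 2.70% to 29.5% and 55.8%. The values below are means over the libraries with at least 50 cells of a cluster and describe these cells without a test. The blood-like cluster of 396 cells is left out.

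The promoters at the 5′ ends of FOXP1 and FOXP2 were open in every cluster described, and intron regions had a larger median spread between clusters than promoters. Between the lowest and the highest cluster the FOXP1 promoter ranged from 49.7 CPM in neuron-like to 77.2 CPM in endothelial-like cells and the FOXP2 promoter from 51.1 CPM in neuron-like to 120 CPM in sclerotome and cartilage-like cells. The median standard deviation of log2(CPM + 1) over clusters was 0.37 for the 7 promoter, 0.56 for the 10 exon and 0.68 for the 33 intron regions. Intron regions also had lower counts, which adds counting error to their spread. The FOXP1 intron at 517 kb had the smallest spread, 0.17, with 33.7 to 48.8 CPM, and the FOXP2 intron at 366 kb the largest, 1.21. The internal promoters were weaker, and that of FOXP2 at 302 kb had means of 0.784 to 3.1 CPM, with 0 counts in some libraries of several clusters. The largest spread among promoters was that of the internal FOXP1 promoter at 273 kb, with 17.8 CPM in neural crest and glia-like cells, 8.84 CPM in neuron-like cells and 1.0 CPM in cluster 5.

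**Figure D4:**
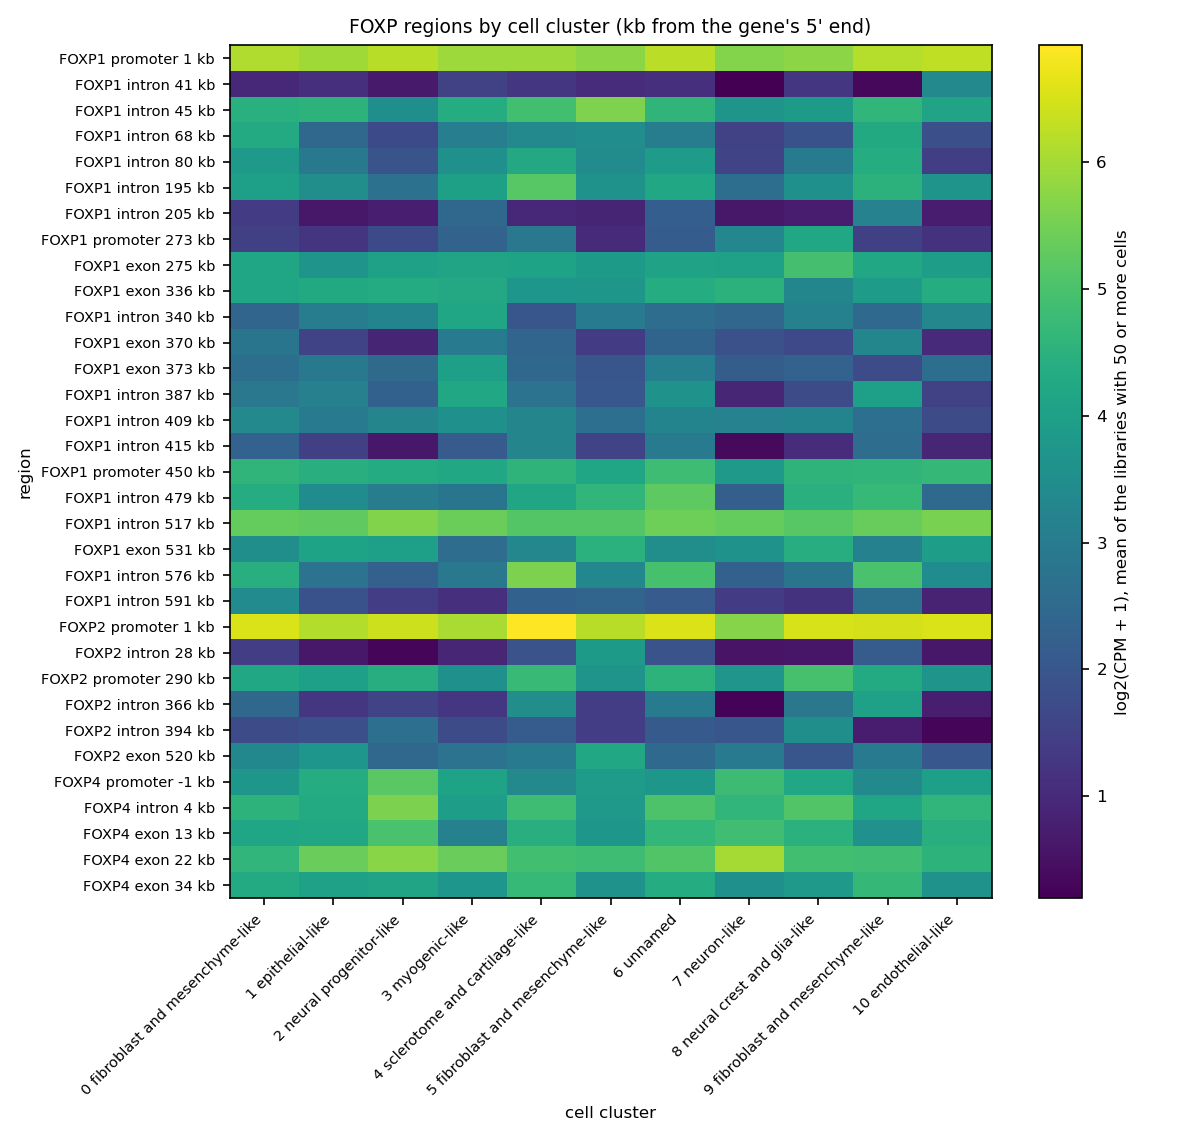
Level of FOXP regions that reached a mean of 8 CPM in some cluster, as log2(CPM + 1) averaged over the libraries with 50 or more cells, for 11 cell clusters (columns) and regions ordered by gene and distance from its 5′ end (rows). The FOXP1 and FOXP2 promoters are bright in every column, while introns such as those of FOXP1 at 576 kb and 41.1 kb are brightest in the sclerotome and cartilage-like and the endothelial-like cluster.

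Different introns of FOXP1 were highest in different cells. For 5 of the 24 with a peak in all libraries the same cluster was highest in all 6 libraries. These 5 were picked after their values were seen, and the share among all introns of the series was not counted. The intron at 576 kb held 47.7 CPM in sclerotome and cartilage-like cells (32.0 to 75.7 CPM over the 6 libraries), 30.7 CPM in cluster 9 and 3.76 CPM in neural progenitor-like cells. The intron at 195 kb was likewise highest in sclerotome and cartilage-like cells, with 35.0 CPM, beside 5.23 CPM in neuron-like cells. The intron at 45.4 kb was highest in cluster 5, with 48.2 CPM (37.6 to 63.5 CPM), beside 10.7 CPM in neural progenitor-like cells. The intron at 340 kb was highest in myogenic-like cells, with 16.8 CPM (8.79 to 25 CPM), beside 8.89 CPM in endothelial-like cells as the next. The weak intron at 41.1 kb was highest in endothelial-like cells, with 9.31 CPM (6.09 to 13.8 CPM), and no other cluster had a mean above 1.82 CPM. In FOXP2 the intron at 27.6 kb held 13.5 CPM in cluster 5 and 3.42 CPM in cluster 9, the next. The FOXP2 intron at 366 kb held 15.6 CPM in cluster 9 and 10.4 CPM in sclerotome and cartilage-like cells. The mean of cluster 9 lacks E18 ZZ, and this cluster was highest in 3 of its 5 libraries. At E21 the sclerotome and cartilage-like cells were higher, with 19.3 and 24.4 CPM against 13.9 and 22.2 CPM in cluster 9.

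The FOXP1 intron at 79.8 kb was also higher after E18 within single clusters. In cluster 0 it held 1.21 and 0.554 CPM at E18, 21.5 and 18.6 CPM at E21, and 16.9 and 21.1 CPM at E28. In myogenic-like cells it held 3.24 and 1.23 CPM, 13.9 and 8.55 CPM, and 19.3 and 19.4 CPM. In sclerotome and cartilage-like cells it held 3.50 and 0.894 CPM, 30.6 and 27.3 CPM, and 20.02 and 25.7 CPM. In each of these clusters every library of E21 and E28 was above both of E18. At E18 cluster 0 had only 273 and 272 cells and the sclerotome and cartilage-like cluster 230 and 232. The low E18 values there rest on very few counts. Clusters of a library share its called peaks and are not replicates, and values of the other clusters are not given here. The intron at 68.3 kb, for which no level at E18 can be given, held 18.4 and 24.7 CPM at E21 and 28.8 and 39.9 CPM at E28 in cluster 0, and 7.54 and 8.79 CPM and then 10.6 and 17.3 CPM in myogenic-like cells. The FOXP2 intron at 27.6 kb held 1.2 and 3.28 CPM at E18, 14.8 and 16.8 CPM at E21, and 21.3 and 23.8 CPM at E28 in cluster 5. This cluster had 356 and 219 cells at E18.

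The FOXP4 window as a whole was highest in neural progenitor-like and neuron-like cells. Its values by stage within the clusters include the contrast of E28 with E18 that took part in choosing the family, and are given as a description. The FOXP4 window held 178 ± 26.3 CPM in neural progenitor-like cells and 162 ± 42.0 CPM in neuron-like cells (SD over libraries, n = 5 each). The next was the unnamed cluster 6 with 113 ± 29.7 CPM (n = 6), and the lowest of the clusters measured in at least 5 libraries was cluster 5 with 73.7 ± 27.0 CPM (n = 6). The standard deviations include the differences between stages, and the ranges of neighbours in this order overlapped. The means of the neural progenitor-like and neuron-like cells each lack an E28 library, and FOXP4 was lowest at E28. Not every FOXP4 region had this order. The exon at 34.1 kb was highest in sclerotome and cartilage-like cells, with 24.9 CPM, and lowest in neuron-like cells, with 10.8 CPM. In all 8 clusters with at least 50 cells in every library both E28 values were below both E18 values, by log2 differences of -1.72 to -0.74 of the means. How many other gene windows did so was not counted. The 8 clusters come from the same libraries and are not replicates. In myogenic-like cells FOXP4 held 135 and 130 CPM at E18, 89.1 and 65.6 CPM at E21, and 60.8 and 48.6 CPM at E28. In endothelial-like cells it held 148 and 142 CPM, 86.5 and 75.6 CPM, and 43.9 and 44.3 CPM. The shares of the neural clusters also differed between stages, as given above, and their part in the difference of the whole libraries was not tested. All clusters of a library share its called peaks, so these values move with the covered length given above. FOXP1 had both E28 values below both E18 values in 4 of the 8 clusters and FOXP2 in 4 of 8, and neither had any cluster in which both were above. For these counts too the share of other windows is not known.

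**Figure D5:**
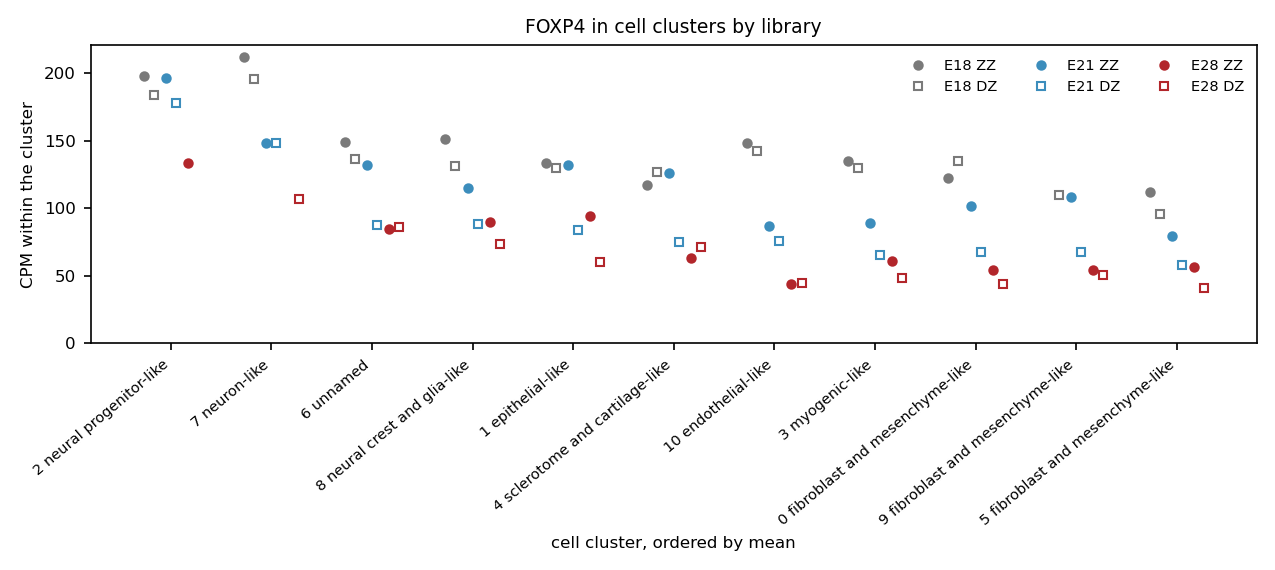
FOXP4 window in 11 cell clusters by library (CPM of the counts of the cluster), for libraries with at least 50 cells, with colours for the stage, filled circles for ZZ and open squares for DZ. Clusters are ordered by mean from 178 to 73.7 CPM, and E28 lies below E18 in all of the clusters shown.

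FOXP1 and FOXP2 were more even between clusters. The FOXP1 window was highest in cluster 6 with 462 ± 61.1 CPM and in sclerotome and cartilage-like cells with 447 ± 42.8 CPM, and lowest in neuron-like cells with 309 ± 29.3 CPM (n = 6, 6 and 5). The FOXP2 window was highest in sclerotome and cartilage-like cells with 219 ± 10.9 CPM (n = 6), followed by cluster 9 with 202 ± 27.1 CPM (n = 5) and neural crest and glia-like cells with 193 ± 23.8 CPM (n = 6), and lowest in neuron-like with 121 ± 42.0 CPM (n = 5) and endothelial-like cells with 123 ± 22.6 CPM (n = 6). The ranges of neighbours in these orders overlapped. In myogenic-like cells FOXP1 held 399 ± 27.1 CPM, FOXP2 129 ± 12.8 CPM and FOXP4 88.2 ± 36.8 CPM (n = 6).

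Over the 67 sums of a cluster and a library with at least 50 cells, the windows most like each gene in log2(CPM + 1) were found among those with at least 5 CPM that shared no peak with it. For FOXP4 they were TMEM163 (Pearson r = 0.92), IGDCC3 (0.91), LOC102168180 (0.91), HOXB1 (0.90) and KIF1A, a motor protein of axons (0.90). For FOXP2 they were KIF26B (0.85), AASS, an enzyme of lysine breakdown that lies on the same chromosome (0.85), LMCD1 (0.85), NID1, a basement membrane protein (0.85), and LOC106509979 (0.84). For FOXP1 the likeness was lower, with LOC106510452 (0.79), LOC110256418 (0.79), BMPR1B, a BMP receptor of the skeleton (0.73), SNCAIP (0.73) and LOC110256313 (0.72). LOC110256418 and LOC110256313 lie on chromosome 13, as FOXP1 does. These sums share libraries and depth, so the values of r describe them and carry no test.

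For comparison with other genes of the pathway, the windows of a fixed list were read in the same fit. Of a list of 32 other forkhead factors, corepressors, partners and genes under FOXP control in other tissues, 31 had a window. Between E21 and E18 the edgeR test called 0 of 31, beside 1.93% of all windows, and between E28 and E21 it called 1 higher and 2 lower, 3 windows beside the 5.71% of all windows given above. The higher was MET, the receptor of hepatocyte growth factor, with 33.4 and 39.2 CPM at E21 and 60.3 and 63.3 CPM at E28 (log2 0.74 ± 0.11, adjusted p = 0.036). The lower were CNTNAP2, a neuronal adhesion protein, with 187 and 191 CPM at E21 and 140 and 119 CPM at E28 (log2 -0.58 ± 0.09, adjusted p = 0.041), and CTBP2, a corepressor that FOXP proteins recruit, with 206 and 228 CPM and then 162 and 161 CPM (log2 -0.46 ± 0.09, adjusted p = 0.049). None of the 11 other forkhead factors passed between consecutive stages. FOXP3, the FOXP factor of regulatory T cells, held 53.4 and 52.2 CPM at E18, 75.2 and 82.3 CPM at E21, and 91.4 and 90.1 CPM at E28, with log2 0.57 ± 0.09 at E21 (adjusted p = 0.051). The median log2 fold change of the list was 0.09 at E21 and -0.04 at E28, against -0.01 for all windows in both steps. For DZ against ZZ 0 of 31 passed, beside 0.00429% of all windows.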

How the data were processed

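Somites (E18, E21) and myotomes (E28) of ZZ and DZ embryos were profiled by 10x scATAC-seq in 6 libraries. The authors aligned the reads to Sscrofa11.1 with Cell Ranger ATAC (1.2.0 per the file headers), called peaks and cells in each library, and deposited raw counts of Tn5 cut sites per peak and barcode, without normalization. Seurat 3.1.1 and Signac 0.2.2 are also named in the submitters' processing notes. Barcodes with 2000 to 30000 counts were kept, and no doublet caller was run. Peaks overlapping by at least 1 bp were merged, and counts were summed per region and library. CPM are relative to all kept counts of a library.

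Stages and breeds were compared across all regions with a peak in every library, and across all gene windows, with the edgeR 4.0.16 quasi-likelihood test (R 4.3.3, TMM, filterByExpr, terms for stage and breed, 2 residual degrees of freedom) and Benjamini-Hochberg adjustment over all features, with a threshold of 0.05. DESeq2 1.42.0 was an alternative. SE is the log2 fold change divided by the square root of its F statistic. Clusters came from latent semantic indexing of 39694 regions on odd-numbered autosomes, 5 neighbours per library and Leiden clustering (leidenalg 0.10.2, resolution 1.0), named from marker lists where at least 3 markers were raised. Counting error is smallest in regions of high CPM, and no intervals were computed from cells, which are not replicates.

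Regions were named by rule: all promoter regions, the 3 intron regions of highest mean CPM per gene, up to 2 rising and 2 falling calls per gene and contrast, the strongest stage-specific region per gene, and the region that led to the choice. The regions highest in 1 cluster in all libraries, those printed as sequence and the other regions named were picked after their values were seen. The members, gene lists and marker lists were chosen with earlier results of these data known. Alternatives were other barcode limits, size factors, filters, models and merging, covered length as an offset, and leaving out each library. Amino acid sequences were not analysed here.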

Additional observations from a re-analysis of the deposited data

Results flagged for a closer look

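The FOXP1 intron region at 45.4 kb (chr13:52927835-52930150) moved in opposite directions in the breeds between E21 and E28. In ZZ it went from 23.5 to 45 CPM, a log2 change of 0.94, and in DZ from 31.7 to 22.6 CPM, a log2 change of -0.49, so that the changes differed by 1.42 on the log2 scale. Each value is a single library and the difference was not tested. The region was highest in cluster 5, which made up 11.8% and 22.2% of the ZZ cells and 19.4% and 3.70% of the DZ cells at E21 and E28. Within cluster 5 it held 44.5 and 63.5 CPM in ZZ and 61.8 and 39.4 CPM in DZ at E21 and E28. The part of the cell makeup in these changes was not tested.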

How the results depend on the processing

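Of 6 FOXP regions called for E21 against E18 and 6 for E28 against E21, DESeq2 called 14 and 16 of 50 (18.1% and 19.7% of all regions) and covered length as an offset 15 and 16 (17.6% and 32.4%). Among regions whose covered lengths stayed within 1.5 times, 1 of 29 and 2 of 19 passed (1.2% and 6.28% of all such regions), and for E28 against E18 5 of 12 (32.2%), where reciprocal overlap of 50% gave 14 of 32 (40.7%) in place of 27 of 50. Leaving out 1 library gave 0 to 16, 0 to 12 and 10 to 25 calls in these contrasts, beside 0.0% to 21.7%, 0.0% to 20.6% and at most 39.3% of all regions. Without E21 ZZ or E21 DZ no region passed in either step, with 1 residual degree of freedom, and without E18 DZ 1 passed for E21 against E18, without E18 ZZ 3, without E28 ZZ 16 and without E28 DZ 15. For E28 against E21 12 passed without E28 ZZ. For E28 against E18 16 passed without E18 ZZ and 10 without E18 DZ, where 16943 and 8740 of all 78533 regions passed, against 29162 with all libraries.

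Among gene windows DESeq2 called 1 of 3 (FOXP4) for E21 against E18, where it called 33.3% of all windows, and the offset called 2, FOXP1 (log2 0.61) and FOXP2 (0.39), for E28 against E21 and the same genes (0.78 and 0.49) for E28 against E18, with FOXP4 at 0.0067 and -0.26. The offset called 42.9% and 69.9% of all windows and gave medians of all windows of 0.34 and 0.56 in these contrasts, against -0.01 and -0.04 without it. FOXP4 lost its call for E28 against E21, 0 to 1 called, without E18 DZ, E21 ZZ, E21 DZ or E28 DZ. Under the offset the FOXP1 introns at 525 and 511 kb and the FOXP2 exon at 520 kb reversed (0.21, 0.43 and 0.59). With exons before promoters the promoter share was 0.0452%, 0.126% and 0.0% at E18, E21 and E28, since promoter regions also reach the first exon, and counting barcodes with a count gave 26.8%, 26.8% and 27.2%.

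The 12 named calls gave 87 values under alternatives with all libraries, of which 78 kept direction and call, 6 lost the call and 3 reversed. With 1 library left out, 32 of 72 kept it and 40 lost it, with 0 reversed. No FOXP region or window was called between the breeds under any alternative, while DESeq2 called 0.202% of all regions and 2.2% of all windows. Replicate numbers gave no further pairing, because every library carries replicate number 1. The fit already has a term for breed, and without it the calls were 6, 6 and 28 of 50 regions, beside 7.37%, 7.26% and 37.4% of all regions. Peaks called per library limit every comparison, since sequence outside them has no counts.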
